A study of Mus musculus with 2 samples.

Results

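The enzymes that make and break down cyclic nucleotides, and the proteins that switch off the G proteins above them, were followed here through the nuclei of the mouse cerebral cortex. The members are all genes whose symbols name a phosphodiesterase catalytic or subunit gene (Pde with a number and a letter), a membrane or soluble adenylyl cyclase (Adcy with a number) or a regulator of G protein signalling (Rgs with a number). Of 30905 genes in the deposited matrix 55 matched: 24 phosphodiesterases, 10 cyclases and 21 RGS genes. The 52 with at least 20 unique molecular identifiers (UMIs, counts of single RNA molecules) were used, and Rgs1, Rgs18 and Rgs21 fell short with 13, 7 and 5 UMIs. The members nearest above that limit were Pde6b, Pde6c and Pde6g with 51, 54 and 61. The study profiled nuclei from frozen cortices of wild-type C57BL/6 mice, 1 sample aged 18 months and 1 aged 2 months, each a pool of 3 untreated animals on normal diet. Both samples lie in 1 matrix whose barcodes end in 1 of 2 suffixes, called library 1 and library 2, and which suffix belongs to which age is not given in the labels. No comparison of ages was therefore made, there are no replicates, and every interval below is a 95% interval for counting error only.

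Receptors coupled to G proteins raise or lower cyclic AMP through adenylyl cyclases, while cyclic GMP comes from guanylyl cyclases that answer nitric oxide or peptides. Phosphodiesterases hydrolyse one or both nucleotides and differ in what controls them, from calcium with calmodulin to cyclic GMP itself. RGS proteins speed the hydrolysis of GTP by G protein alpha subunits and so shorten the signal. In the striatum these genes are known for setting how dopamine and adenosine act on projection neurons, and in the vessel wall for the tone of smooth muscle.

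The libraries held 58108297 and 60547146 UMIs over 8914 and 8587 barcodes, of which 8286 and 7954 nuclei were kept, and 19 barcode sequences occurred in both. Nuclei were clustered without the members and sorted by marker genes into 11 groups, which ran from 2811 and 2944 cortical excitatory nuclei down to 64 and 83 mural nuclei (pericytes with smooth muscle). Group names stand for nuclei that resemble the type by its markers. Striatal projection neurons (393 and 228 nuclei) and hippocampal excitatory neurons (735 and 517) were present although the labels name cortex alone. Over 10 marker lists, 62 of 67 markers were highest in their own group in both libraries. The names came from these same markers, so this count does not test them. The excitatory neuron list was not among the 10. Median depth was 6400 to 8336 UMIs in neuron groups and 1683.5 to 3600 in glia and vessel cells. Excitatory neuron markers stood in astrocytes, oligodendrocytes, microglia, endothelial and mural nuclei at a median of 46.1% to 86.9% of their cortical excitatory level. The highest single marker was at 328% and 323% of it, in mural nuclei of library 1 and 2. How much of the counts in these groups is free neuronal RNA was not tested.

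Levels are given as CPM, the UMIs of a gene per 1000000 UMIs of the group, library 1 before library 2. A member was called in a group when its CPM plus 1 was at least 4 times the mean of the other 10 groups in both libraries. By this rule 21 of the 52 members were called in some group, beside 13.4% of the 18202 genes with at least 20 UMIs in these groups. They were 12 of 24 phosphodiesterases, 3 of 10 cyclases and 6 of 18 RGS genes. The median of the highest log2 ratio reached in both libraries was 1.68 for the members and 0.71 for all genes. Striatal projection neurons held 6 of the called members (background 0.692%), endothelial nuclei 4 (2.55%), mural nuclei 4 (1.41%), microglia 3 (2.17%), oligodendrocytes 2 (1.3%), astrocytes 1 (1.62%) and interneurons 1 (0.577%). None was called in cortical excitatory neurons (background 0.0549%), hippocampal excitatory neurons (0.297%), oligodendrocyte precursors (0.879%) or fibroblasts (2.42%). Of the 52 members, 36 had their highest level in the same group in both libraries. The share over all genes is not given here, so whether that count is unusual is not known. Levels of different genes are not ranked against each other, because CPM in these nuclei followed gene span (Spearman's rho 0.72 over the 52 members between span and highest level).

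**Figure D1:**
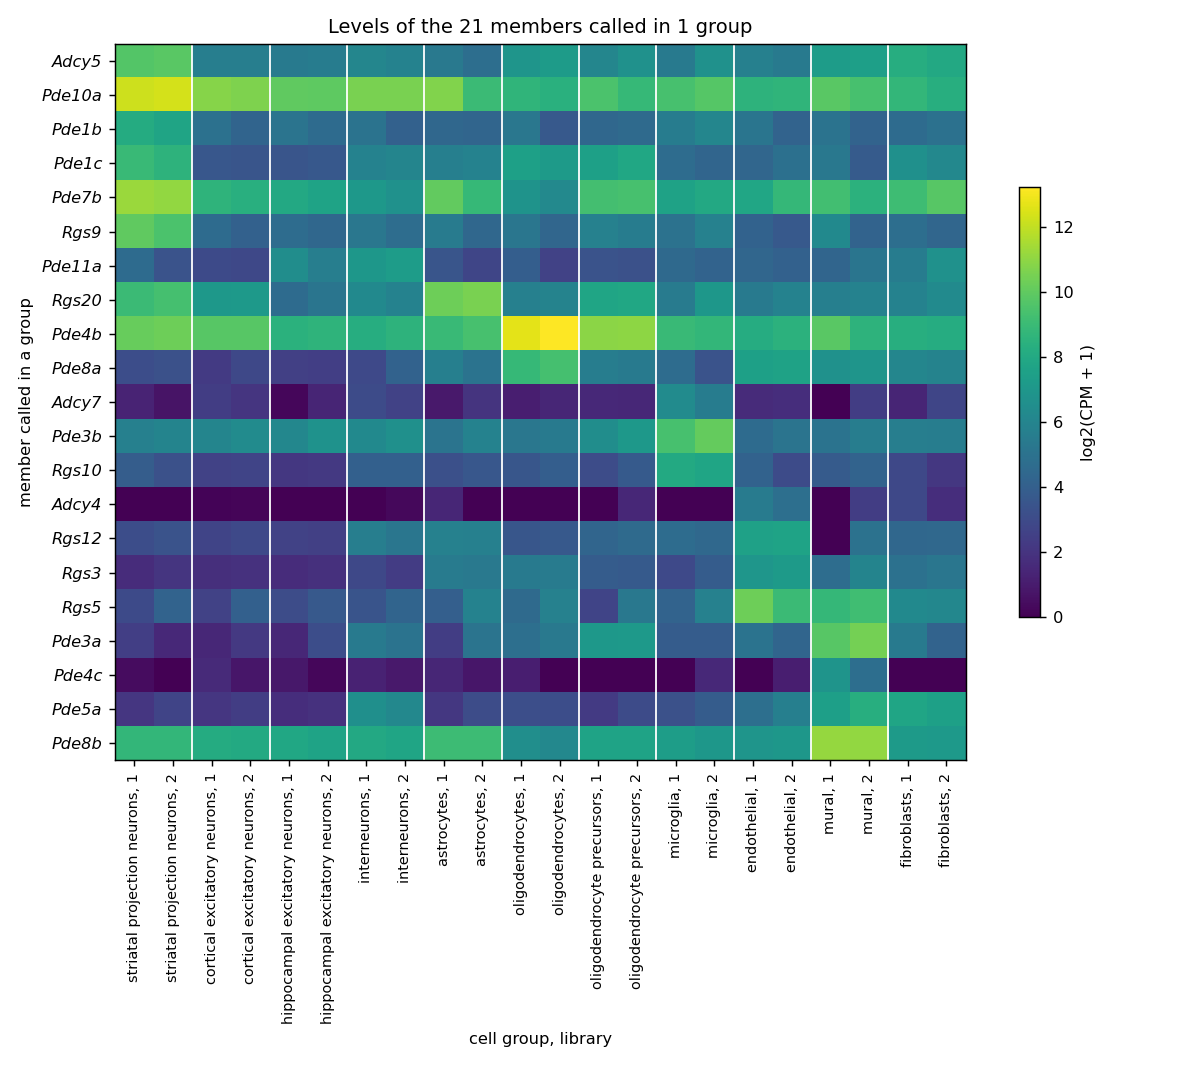
Each row is 1 of the 21 called members and each column a cell group in library 1 or 2; colour gives log2(CPM + 1). Rows are ordered by the group a member was called in, from striatal projection neurons at the top to mural nuclei at the bottom, and the bright cells follow that order in most rows, as for Rgs9 at 1015 and 724 CPM in striatal nuclei.

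A cyclase, 4 phosphodiesterases and an RGS gene were called in striatal projection neurons. Adcy5, a calcium-inhibited cyclase that answers dopamine and adenosine receptors in these neurons, was at 817 and 915 CPM (783 to 851 and 869 to 963). That was 8.67 and 9.004 times the mean of the other groups, and the next group, fibroblasts, had 298 and 256 CPM. Rgs9, an R7 RGS protein that acts on inhibitory G proteins, was at 1015 and 724 CPM (977 to 1053 and 683 to 767), or 26.6 and 27.6 times the other groups. No other group passed 76.6 CPM of Rgs9 in either library. After each nucleus was thinned to 1500 UMIs, 73.5% (68.9 to 77.8) and 66.2% (59.7 to 72.3) of striatal nuclei had an Rgs9 UMI, against 4.02% (3.33 to 4.82) and 2.55% (2.01 to 3.18) of cortical excitatory nuclei. Without thinning these shares were 95.9% and 94.7% against 16.6% and 12.7%, at median depths of 6400 and 6692.5 UMIs against 7868 and 8336.

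The start sites of both genes are shown because they share this striatal pattern and have a single RefSeq window each. The windows run from 250 bases before to 50 after the annotated start in RefSeq's GRCm38.p6, 5′ to 3′ on the gene's own strand, and capitals mark every CG dinucleotide. The Adcy5 window, chr16:35154614-35154913 on the plus strand, held 44 of them at 79.0% G and C, and the Rgs9 window, chr11:109298132-109298431 on the minus strand, held 19 at 60.3%.
Adcy5: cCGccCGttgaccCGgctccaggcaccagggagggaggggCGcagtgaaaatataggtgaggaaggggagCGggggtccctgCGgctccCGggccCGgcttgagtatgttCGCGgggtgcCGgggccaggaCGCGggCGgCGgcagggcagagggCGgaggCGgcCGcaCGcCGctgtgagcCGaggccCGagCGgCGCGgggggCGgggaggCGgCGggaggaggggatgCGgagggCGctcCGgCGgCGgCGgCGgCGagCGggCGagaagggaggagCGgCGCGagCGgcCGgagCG
Rgs9: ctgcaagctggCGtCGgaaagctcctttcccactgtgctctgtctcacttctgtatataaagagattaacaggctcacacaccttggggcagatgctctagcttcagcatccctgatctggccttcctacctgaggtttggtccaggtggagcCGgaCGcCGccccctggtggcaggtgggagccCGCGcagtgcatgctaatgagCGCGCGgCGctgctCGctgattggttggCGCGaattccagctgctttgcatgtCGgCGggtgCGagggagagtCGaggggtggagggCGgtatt
The median over all 32851 windows of this length was 7 CG dinucleotides and the 90th percentile 31, so Adcy5 lay above that percentile and Rgs9 between those values. Pde7b, also with a single window, had 10. The cyclic AMP response element TGACGTCA, searched on both strands, occurred in 0 of the 69 windows of the 39 members that have any and in 1.79% of all windows. Its overlapping shorter form TGACG occurred in 13 of the 69 and in 20.8% of all. These are counts of letters and say nothing about binding.

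The 4 striatal phosphodiesterases differed in how much of them the other groups held. Pde10a, which hydrolyses both nucleotides, was at 4698 and 5313 CPM (4617 to 4780 and 5200 to 5427), with 1795 and 1643 in cortical excitatory neurons and 1503 and 1527 in interneurons. It was 4.94 and 6.89 times the mean of the other groups, and its call was lost at a mitochondrial limit of 1%. Pde7b, specific for cyclic AMP, was at 2409 and 2180 CPM (2351 to 2468 and 2108 to 2254). Among the other groups the highest levels of Pde7b were 1049 and 457 CPM in astrocytes, 621 and 661 in oligodendrocyte precursors and 548 and 874 in fibroblasts. Pde1b and Pde1c, both activated by calcium with calmodulin, were called as well. Pde1b had 278 and 210.5 CPM, at least 3 times any other group in both libraries. Pde1c had 501 and 369 CPM, beside 181 and 235 in oligodendrocyte precursors and 184 and 150 in oligodendrocytes. Pde1c was therefore under 2 times the highest other group in library 2.

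**Figure D2:**
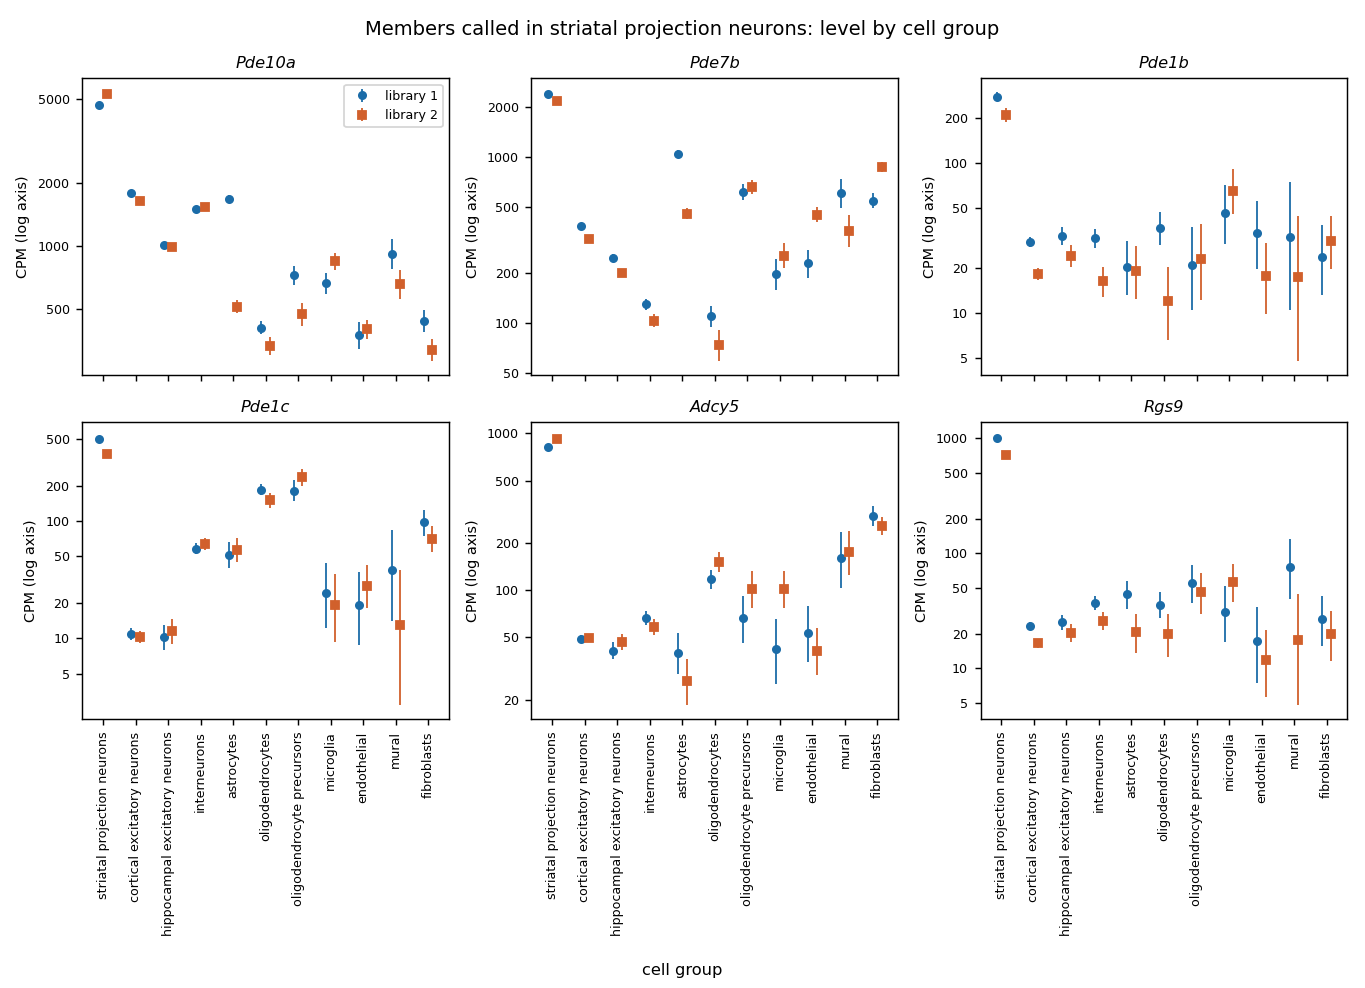
Level in CPM on a log axis for the 6 members called in striatal projection neurons, by cell group; circles are library 1, squares library 2 and bars 95% Poisson intervals. The striatal points lie above all other groups in every panel, and Pde10a and Pde7b of astrocytes are lower in library 2 than in library 1.

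Within the striatal group, nuclei with Drd1 markers (189 and 132) and with Drd2 markers (154 and 88) had near equal levels of the 6 called members, with Drd2 to Drd1 ratios between 0.869 and 1.15. Pde10a was at 4600 and 5364 CPM in Drd1 nuclei and 4860 and 5501 in Drd2 nuclei. Rgs9 had ratios of 0.980 (0.903 to 1.06) and 0.992 (0.877 to 1.12). Other members differed between the subtypes. Pde4b, a cyclic AMP phosphodiesterase, was at 566 and 738 CPM in Drd1 nuclei and 1572 and 1985 in Drd2 nuclei, a ratio of 2.78 (2.55 to 3.03) and 2.69 (2.45 to 2.96). Its relative Pde4d had a ratio of 2.38 (2.09 to 2.72) in library 1 and 1.43 (1.22 to 1.69) in library 2. Adcy2, a cyclase stimulated by G protein beta and gamma subunits, went the other way at 0.582 (0.415 to 0.806) and 0.533 (0.366 to 0.762). Several of the sub-clusters behind these names came almost wholly from a single library, so different sub-clusters hold much of each subtype in the libraries.

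Adcy1, Adcy9, Adcy8 and Adcy2 differed between neuron subtypes. Adcy1, calcium-stimulated, was highest in hippocampal excitatory neurons at 288 and 314 CPM and lowest in striatal projection neurons at 64.1 and 74.2 CPM. Among subtypes, dentate granule neurons led with 461 (436 to 487) and 547 (519 to 577) CPM, against 181 and 163 in CA1 and 134 and 103 in CA3. Adcy9, a membrane cyclase weakly answering forskolin, was instead highest in CA1 (534 and 573 CPM) and CA3 (523 and 703), with 375 and 396 in the dentate. Adcy8, also calcium-stimulated, was highest in interneurons at 251 and 255 CPM, and parvalbumin interneurons had 337 and 341. Adcy3 was between 17.6 and 61.2 CPM in every group, highest in striatal nuclei at 61.2 and 58.5. Its intervals there (52.2 to 71.2 and 47.2 to 71.6) overlapped those of several neuron groups. Adcy6, calcium-inhibited like Adcy5, was low in striatal nuclei, at 4.39 and 5.66 CPM, and reached 38.3 and 65.3 in mural nuclei on 6 and 15 UMIs, beside 39.2 and 20.8 in fibroblasts.

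Adcy2 also varied among excitatory subtypes. Near-projecting cortical neurons had 1444 (1344 to 1549) and 2020 (1913 to 2131) CPM, layer 6b neurons 887 and 1041, and CA3 neurons 257 and 333. Interneurons split: Sst and Vip nuclei had 574 and 667, and 690 and 831 CPM, while parvalbumin nuclei had 74.5 and 101 and Lamp5 and Ndnf nuclei 108 and 157. The order parvalbumin, then Lamp5 and Ndnf, then Sst held in both libraries. Parvalbumin and Sst nuclei came in part from sub-clusters of nearly a single library, such as a parvalbumin sub-cluster of 0 and 163 nuclei and another of 142 and 6. Astrocytes had 556 and 853 CPM of Adcy2, beside 588 and 745 in cortical excitatory neurons, so the highest group was not the same in each library. Excitatory markers stood in astrocytes at a median of 46.1% and 64.8% of their cortical level, and Adcy2 at nearly its whole cortical level or more; what neuronal RNA adds to the astrocyte value was not tested.

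Among the phosphodiesterases called in no group, Pde1a and Pde4d were highest in cortical excitatory neurons and differed between layers. Pde1a, activated by calcium with calmodulin, reached 2337 (2240 to 2437) and 2265 (2175 to 2357) CPM in layer 6b neurons and 1568 and 1406 in layer 6 corticothalamic neurons. Upper-layer neurons had 680 and 611 CPM, dentate granule neurons 296 and 156 and parvalbumin interneurons 102 and 139. CA1 (1248 and 1366) and CA3 (1108 and 1123) were well above the dentate. Pde4d, specific for cyclic AMP, was highest in layer 6 corticothalamic neurons at 3695 (3626 to 3766) and 4048 (3981 to 4117) CPM. It was lowest in Drd1 striatal neurons at 254 and 344, the lowest of the 16 neuron subtypes in each library. Mural nuclei had 1878 and 1832 CPM of Pde4d and fibroblasts 970 and 836 of Pde1a, levels near those of cortical excitatory neurons (2036 and 2074, and 1008 and 925). Excitatory markers stood in mural nuclei at a median of 50.7% and 77.7% of their cortical level. What neuronal RNA adds to the mural and fibroblast values was not tested.

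**Figure D3:**
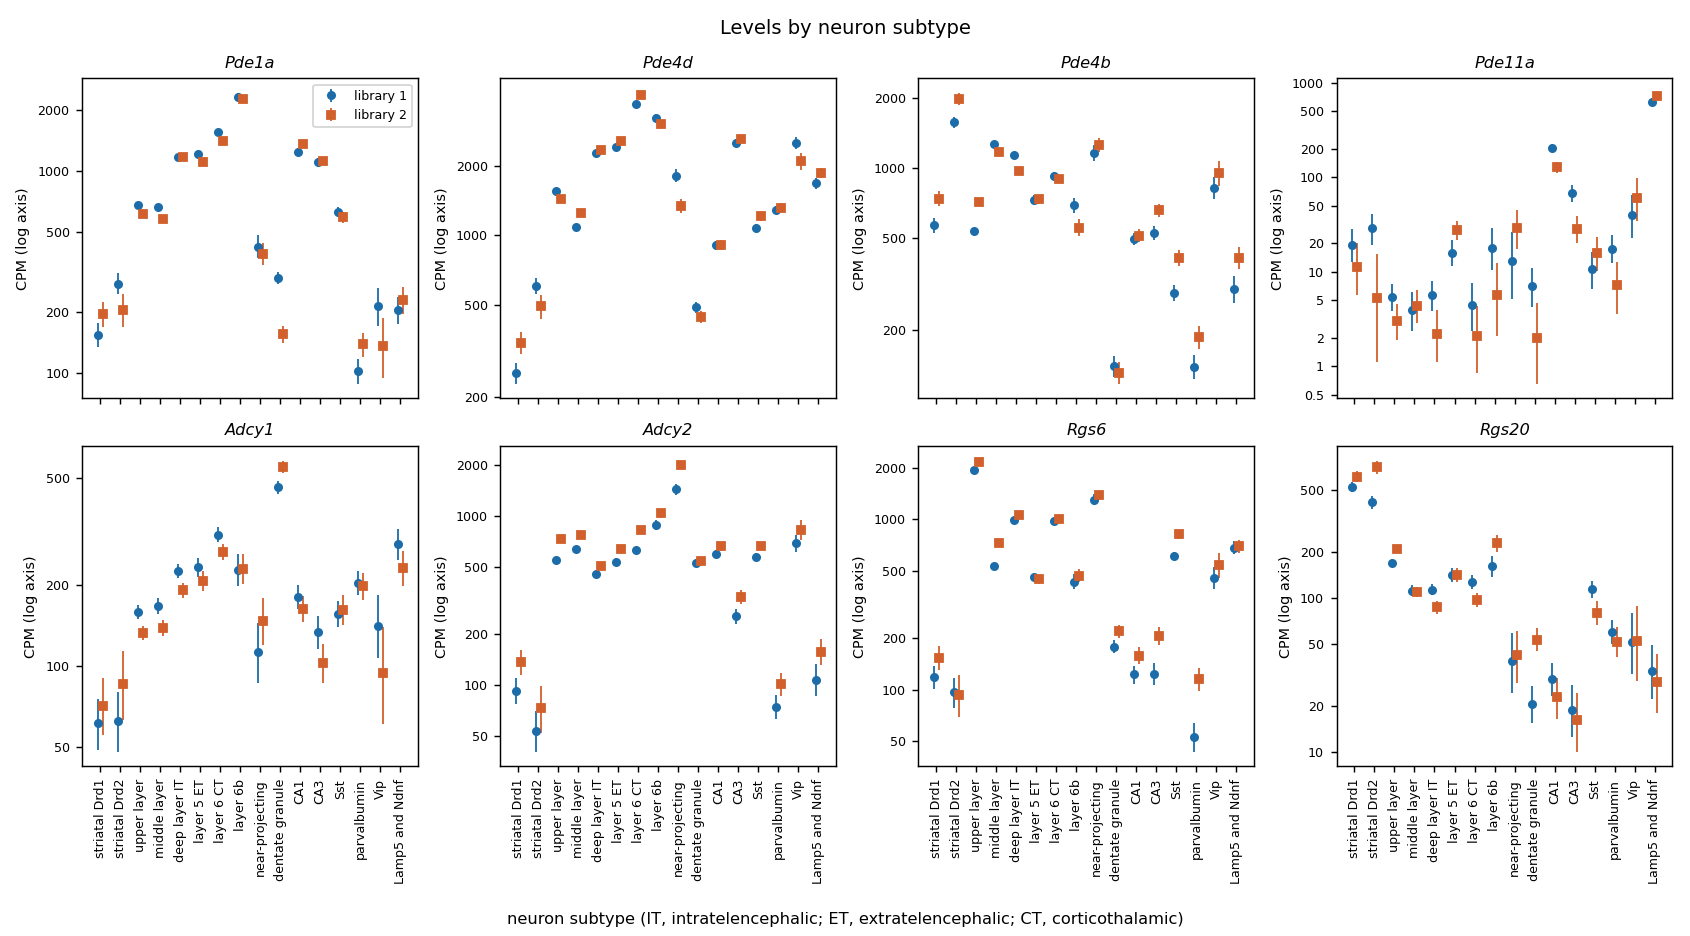
Level in CPM on a log axis of 8 members, chosen after their values were seen, in 16 neuron subtypes; circles are library 1, squares library 2 and bars 95% Poisson intervals. Pde11a stands out in Lamp5 and Ndnf interneurons, Adcy1 in dentate granule neurons and Rgs20 in both striatal subtypes.

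Pde11a, which hydrolyses both nucleotides, was called in interneurons at 128 and 160 CPM (119 to 137 and 149 to 172), 4.76 and 6.04 times the other groups. Within interneurons the highest level was in Lamp5 and Ndnf nuclei, at 622 (567 to 680) and 719 (660 to 781) CPM. Sst, parvalbumin and Vip nuclei had between 7.17 and 60.4 CPM. The next neurons were CA1, at 206 (187 to 226) and 128 (112 to 144) CPM, and CA3, at 67.6 and 28.4, while dentate granule neurons had 7.09 and 2.01. Of the fibroblasts, cluster 31 (Slc47a1 and Bnc2 among its leading genes) had 107 and 212 CPM and cluster 26 had 16.3 and 8.54. The call for interneurons was lost at Leiden resolution 1 and without a mitochondrial limit. After thinning, 10.96% and 12.9% of interneurons had a Pde11a UMI, beside 0.925% and 0.883% of cortical excitatory nuclei. Unthinned the shares were 22.2% and 21.3%, and 4.27% and 3.36%, at median depths of 7596 and 7071 and of 7868 and 8336 UMIs.

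Pde5a, which is specific for cyclic GMP and is the target of sildenafil, was under 6 CPM in cortical, hippocampal and striatal projection neurons and at 93.9 and 72.0 CPM in interneurons. Parvalbumin nuclei had 134 and 127 CPM and Vip nuclei 156 and 110, with overlapping intervals, and Sst nuclei 14.7 and 10.1. It was called in mural nuclei at 179 (119 to 258) and 313 (245 to 395) CPM. Fibroblasts, at 215 and 184 CPM, were higher than mural nuclei in library 1 within overlapping intervals. Within fibroblasts cluster 31 had 528 and 351 CPM against 65.0 and 42.7 in cluster 26. The mural call was lost at Leiden resolution 1 and with no doublet limit.

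Pde4b and Pde8a, both specific for cyclic AMP, were called in oligodendrocytes. Pde4b was at 6482 (6364 to 6602) and 9602 (9425 to 9782) CPM, 9.003 and 13.6 times the other groups, and oligodendrocyte precursors followed with 1970 and 1989. The 42 newly formed oligodendrocyte nuclei of library 2, kept out of the groups, had 2543 CPM (2342 to 2756), nearer to precursors than to mature nuclei. Different clusters hold the class in the libraries: cluster 2 has 875 of the nuclei of library 1 and 50 of library 2, cluster 18 has 20 and 372. Pde4b was higher in library 2 in each, with 6434 and 7249 CPM in cluster 2 and 7948 and 9851 in cluster 18. Pde8a was at 471 and 642 CPM, with endothelial nuclei next at 182 and 198 and all neuron groups under 17. Oligodendrocyte markers stood in endothelial nuclei at a median of 5.49% and 4.18% of their own level, and Pde8a at 38.7% and 30.9%; the part of oligodendrocyte RNA in the latter was not tested.

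Microglia had the highest level of Pde3b, a phosphodiesterase that hydrolyses cyclic AMP and is inhibited by cyclic GMP. It was at 658 (586 to 738) and 1081 (994 to 1174) CPM, and no other group passed 130. Rgs10, an R12 RGS protein, was at 257 and 217 CPM, 23.3 and 19.9 times the other groups. Adcy7, a cyclase stimulated by G protein beta and gamma subunits, was at 82.0 (57.7 to 113) and 46.2 (29.6 to 68.7) CPM on 37 and 24 UMIs. The other groups had at most 6.99 CPM of Adcy7, though within interneurons Sst nuclei had 15.7 and 10.1 CPM on 31 and 16 UMIs. Microglial markers stood in the 4 neuron groups at medians from 0.758% to 1.14% of their own level. Vip interneurons had 49.5 and 33.99 CPM of Rgs10 and Lamp5 and Ndnf nuclei 38.9 and 40.3, above the other neuron subtypes.

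Rgs20, an RZ RGS protein, was called in astrocytes at 1271 (1207 to 1337) and 1494 (1430 to 1561) CPM, 10.3 and 10.0 times the other groups. Both astrocyte clusters had it, cluster 5 at 1254 and 1485 CPM and cluster 28, led by Aqp4 and Gfap, at 1363 and 1523. Striatal projection neurons came next with 523 and 636 CPM, in Drd1 nuclei at 524 and 612 and in Drd2 nuclei at 420 and 706. Hippocampal excitatory neurons were lowest in both libraries at 23.3 and 34.4. The gene overlaps the protein-coding gene Atp6v1h on the opposite strand, and whether the counting used strand is not given in the sources used here. The clusters did differ in Pde8b, at 601 and 636 CPM in cluster 5 and 224 and 212 in cluster 28.

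The vessel wall held 8 called members, which divided between endothelial nuclei, pericytes and smooth muscle. Pde3a, a phosphodiesterase inhibited by cyclic GMP, was at 900.5 (758 to 1062) and 1436 (1285 to 1600) CPM in mural nuclei. Smooth muscle had 2934 (2423 to 3522) and 3136 (2762 to 3546) CPM of it and pericytes 222 (145 to 325) and 511 (402 to 639), though smooth muscle numbered only 12 and 23 nuclei. Pde8b showed the opposite order, with 2930 (2629 to 3257) and 3199 (2918 to 3500) CPM in pericytes and 128 (41.4 to 298) and 321 (210 to 470) in smooth muscle. Outside mural nuclei Pde8b was highest in astrocytes, at 544 and 528 CPM. Pde4c, specific for cyclic AMP, rested on 18 and 6 UMIs, all in pericytes, at 153 (90.9 to 242) and 40.3 (14.8 to 87.8) CPM. In smooth muscle 0 UMIs of it were counted, where the intervals reach 94.1 and 45.5 CPM. Rgs4, an R4 RGS protein, was also highest in mural nuclei at 326 and 222 CPM but reached 4 times the other groups in library 1 only (5.51 and 3.26 times).

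Endothelial nuclei were called for Rgs5, Rgs3, Rgs12 and Adcy4. Rgs5, an R4 RGS protein widely used to mark pericytes, was at 1284 (1183 to 1391) and 508 (462 to 559) CPM in endothelial nuclei and at 453 and 574 in mural nuclei. Endothelial nuclei were thus above mural nuclei in library 1 and below them in library 2. The order in library 2 depended on the processing: at Leiden resolution 1 Rgs5 was at 1210 CPM in endothelial and 694 in mural nuclei, without a mitochondrial limit at 593 and 570.4, and without cluster 35 at 626 and 574. Mural markers stood in endothelial nuclei at a median of 3.91% and 4.98% of their mural level (14 markers, from 0 to 18.1% and 135%), and Rgs5 at 283% and 88.5%. The part of mural RNA in the endothelial Rgs5 level was not tested. Rgs5 divided the endothelial clusters: cluster 20, led by Slco1a4 and Flt1, had 1425 and 626 CPM, and cluster 35, led by Bmx and Eln, 62.1 (12.8 to 182) and 129 (84.3 to 189). Rgs3, another R4 protein, was higher in cluster 35, with 331 and 209 CPM against 101 and 125 in cluster 20. Rgs12, an R12 protein, was at 191 and 201 CPM in endothelial nuclei and followed cluster 20, with 208 and 245 CPM against 41.4 and 59.6. Adcy4, a cyclase stimulated by G protein beta and gamma subunits, was at 45.02 (27.9 to 68.8) and 27.0 (17.1 to 40.5) CPM on 21 and 23 UMIs, with 0 to 6.28 CPM in the other groups. Cluster 36, with 17 and 32 nuclei and markers of both endothelial nuclei and pericytes, was left unnamed and had 3822 and 3351 CPM of Rgs5.

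**Figure D4:**
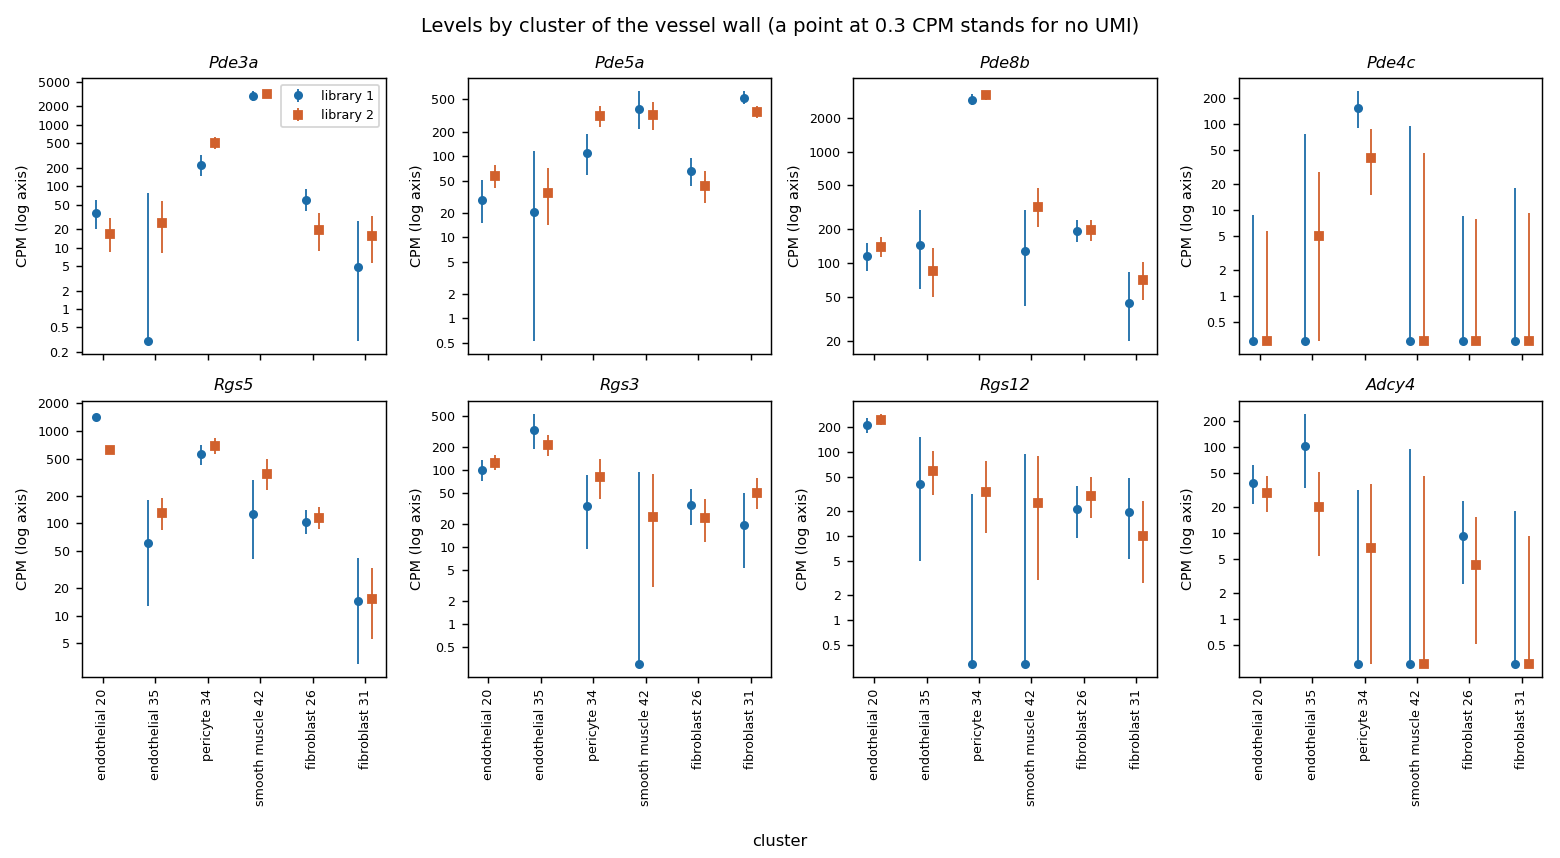
Level in CPM on a log axis of 8 members in the clusters of endothelial, mural and fibroblast nuclei, chosen after their values were seen; circles are library 1, squares library 2, bars 95% Poisson intervals, and a point at 0.3 stands for no UMI. Pde3a is highest in smooth muscle cluster 42, Pde8b and Pde4c in pericyte cluster 34, and Rgs5 is high in endothelial cluster 20 and in pericytes.

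Rgs7, Rgs6 and Rgs17 were called in no group. Rgs7, an R7 protein, was at 1029 and 1209 CPM in cortical excitatory neurons and from 245 to 1037 CPM in all other groups. Upper-layer neurons had 1388 and 1710 CPM of it and layer 6 corticothalamic neurons 540 and 665. Rgs6, of the same R7 group, varied more, from 1935 (1903 to 1968) and 2171 (2138 to 2205) CPM in upper-layer neurons to 52.8 and 115 in parvalbumin interneurons. Near-projecting neurons followed upper-layer neurons at 1303 and 1380, and CA1, CA3, dentate and striatal subtypes were all under 220 CPM. Outside neurons Rgs6 was at 655 and 749 CPM in astrocytes and 683 and 1040 in mural nuclei, and what neuronal RNA adds there was not tested. Rgs17, an RZ protein, was highest in striatal projection neurons at 229 and 200 CPM (211 to 248 and 179 to 223) and lay between 36.5 and 172 CPM in the other groups.

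The libraries were set side by side in every group, for members with at least 20 UMIs there. Of 407 such pairs of member and group, 32 were at least 2-fold apart in CPM plus 1, which is 7.86% beside a background of 8.94% of pairs over all genes. That share is near the background. By group the pairs apart were 4 of 39 in striatal projection neurons (background 10.3%), 2 of 50 in cortical excitatory neurons (7.99%), 4 of 43 in hippocampal excitatory neurons (9.49%) and 1 of 44 in interneurons (9.34%). They were 4 of 38 in oligodendrocytes (9.73%), 2 of 30 in their precursors (8.19%), 1 of 35 in endothelial nuclei (9.61%) and 3 of 35 in fibroblasts (8.36%). Rgs5 accounted for 7 of the 32. In 6 groups it was higher in library 2: cortical excitatory neurons (5.19 and 15.9 CPM), striatal projection neurons, astrocytes (15.3 and 57.0), oligodendrocytes (22.7 and 55.9), their precursors and microglia. In endothelial nuclei it was lower in library 2, a ratio of 0.396 (0.349 to 0.449), so the direction there was the reverse. At Leiden resolution 1 the endothelial levels were 1811 and 1210 CPM, still lower in library 2 but less than 2-fold apart. Library 2 also had more endothelial nuclei, 276 against 150, and more mural nuclei, 83 against 64; the part of free RNA in the low levels was not tested.

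Astrocytes held 6 of 38 pairs (background 7.74%). Pde10a was at 1676 and 514 CPM there, a ratio of 0.307 (0.281 to 0.334), and Pde7b at 1049 and 457, a ratio of 0.437 (0.396 to 0.481). Both differences were larger in cluster 5, where Pde10a had 1906 and 569 CPM and Pde7b 1165 and 504, than in cluster 28, with 387 and 353 and with 393 and 321. Striatal markers, which those members accompany elsewhere, stood in astrocytes at a median of 14.1% and 24.5% of their striatal level, higher in library 2. Pde10a stood at 35.7% and 9.67% of its striatal level and Rgs9 at 4.35% and 2.83%, both lower in library 2; the part of striatal RNA was not tested. The remaining astrocyte pairs were Rgs9, Rgs5, Pde3a and Adcy10. In mural nuclei, with 2 of 24 pairs (background 9.68%), Pde4b was at 907 and 379 CPM and Pde4c at 115 and 26.1. Oligodendrocyte markers stood in mural nuclei at a median of 9.31% and 5.26% of their own level, also lower in library 2. Pde4b stood there at 13.99% and 3.94% of its oligodendrocyte level, and the part of oligodendrocyte RNA was not tested. In microglia, with 3 of 31 pairs (background 8.3%), Adcy5 was at 42.1 and 102 CPM and Rgs20 at 44.3 and 125, beside Rgs5. The 7 striatal markers stood in microglia at a median of 23.4% and 20.95% of their striatal level (2.13% to 38.9% and 10.03% to 51.8%). The part of striatal RNA was not tested. Rgs20 was highest in astrocytes, at 1271 and 1494 CPM, and what astrocyte RNA adds to its microglial level was not tested either.

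**Figure D5:**
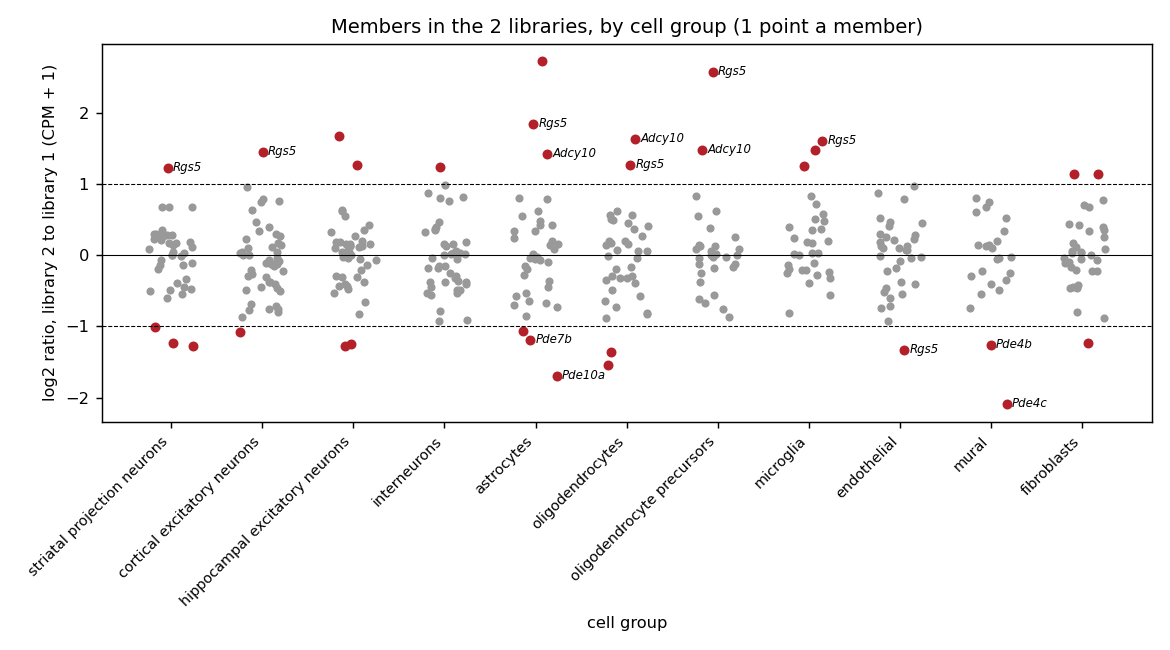
Each point is a member in a cell group, placed by the log2 ratio of CPM + 1 in library 2 to library 1; dashed lines mark 2-fold and coloured points lie beyond them. The 32 coloured points of 407 lie on both sides, and Rgs5 is above the upper line in 6 groups and below the lower line in endothelial nuclei.

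In the 11 compared groups, the 19 members outside the naming rule had a highest level over both libraries from 0.789 CPM (Rgs13) to 153 CPM (Pde4a). The naming rule goes in part by CPM, which followed gene span, and called members such as Adcy4 and Adcy7 had lower levels than Pde4a. They were Pde2a, Pde4a, Pde6a, Pde6b, Pde6c, Pde6d, Pde6g, Pde6h, Pde7a, Pde9a, Adcy10, Rgs2, Rgs8, Rgs11, Rgs13, Rgs14, Rgs16, Rgs19 and Rgs22. Rgs16, an R4 protein, came nearest to a call, at 10.98 and 15.04 CPM in fibroblasts on 7 and 13 UMIs. Rgs8, of the same R4 group, was highest in striatal projection neurons at 60.4 and 43.4 CPM, and Rgs2 in microglia at 53.2 and 48.1. Of the retinal phosphodiesterase 6 genes, Pde6b, Pde6c and Pde6g stayed under 11 CPM in all groups, while Pde6d, a carrier of prenylated proteins without catalytic activity, was at 16.7 to 61.3 CPM in every group. Pde9a, specific for cyclic GMP, was highest in interneurons at 64.8 and 58.3 CPM, and within striatal neurons had 36.7 and 40.1 CPM in Drd1 nuclei and 17.9 and 8.89 in Drd2 nuclei. Pde2a is uncertain: it had 175 UMIs in the whole matrix, and the annotated gene Gm45837, with 39 UMIs, covers most of its span on the same strand of chromosome 7 (101421691 to 101512827 for Pde2a, 101410886 to 101512819 for Gm45837, mm10). How reads shared by these genes were treated is not given in the sources used here.

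Partner genes of the pathway were counted by the same 4-fold rule from lists kept apart from the members, beside the background of 13.4% in any group. Of 13 G alpha genes, Gnal (the alpha subunit coupling striatal dopamine receptors to cyclase) was called in striatal projection neurons at 809 and 684 CPM, Gnao1 in astrocytes at 1476 and 1577 CPM and Gna15 in microglia at 68.7 and 88.5. Of 14 tested G beta and gamma genes, Gng7 was called in striatal neurons at 587 and 473 CPM. Gng8 was called in oligodendrocytes at 3.4 and 4.3 CPM, on only 6 and 5 UMIs. Gnal, Gng7 and the member Adcy5, known to work together in striatal neurons, were each called there. Of 21 cyclic AMP effectors only Rapgef3, a cyclic AMP activated exchange factor, was called, in astrocytes at 283 and 238 CPM. Akap6, an anchoring protein of protein kinase A, was highest in striatal projection neurons at 837 and 947 CPM without a call. Gnas, Gnb1, Gng2, Rapgef4 and Akap13, also among the 3 highest of their lists, were called in no group. In endothelial nuclei Gnas was at 810 and 538 CPM, Gnb1 at 354 and 345 and Rapgef4 at 624 and 740. Interneurons had 623 and 585 CPM of Rapgef4. Gng2 was at 312.5 and 277 CPM in microglia, and Akap13 at 394 and 370 in fibroblasts. Of 9 genes of cyclic GMP synthesis and action, 7 were called: the guanylyl cyclase subunits Gucy1a1, Gucy1a2 and Gucy1b1 and the kinase Prkg1 in mural nuclei, Npr1 and Nos3 in endothelial nuclei and Prkg2 in oligodendrocyte precursors (backgrounds 1.41%, 2.55% and 0.879%). Npr1 was called on only 10 and 13 UMIs, at 21.4 and 15.3 CPM. Prkg1 was at 4547 and 5187 CPM in mural nuclei, where the members Pde3a and Pde5a were called too. None of the 4 tested partners of R7 RGS proteins was called, and Gpr158, Rgs7bp and Gnb5 were each highest in striatal projection neurons in both libraries, Gpr158 at 1586 and 1694 CPM.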

How the data were processed

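The values are unnormalised whole-number UMI counts in a sparse matrix deposited by the authors, used as 1 pooled sample with 2 barcode suffixes. Per the file headers Cell Ranger 3.1.0 made the counts, whereas the submitters' processing notes name Cell Ranger 2.0.1, Seurat 3.1, R 4.0.2 and the build mm10; this conflict was not settled. The sources used here name no annotation, treatment of intronic reads or cell calling.

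Nuclei with at least 200 genes, at most 5% mitochondrial UMIs and a Scrublet score under 0.2 were kept. Scrublet's automatic threshold marked 0 and 2 barcodes and had not worked, and the score limit applied to 305 and 332. Counts scaled to 10000 and logged gave 2000 variable genes without the members and pathway lists, then 30 principal components, 15 neighbours and Leiden clusters at resolution 2 (scanpy 1.11.5, seed 1), 47 in all. A cluster took the type with the highest mean marker fraction, with at least 3 markers at 0.25 or more, a mean of 0.33 and a lead of 1.2. An excitatory subtype needed a mean of 0.5, and other subtypes 0.33. Striatal and interneuron nuclei were clustered again at resolution 1, on 1000 variable genes and 15 components. These thresholds and the second clustering were set after the clusters were seen. Excitatory nuclei without a subtype (1433 and 1699), among them cluster 1 with low UMIs (490 and 651 nuclei), entered no group. A group needed 30 nuclei in each library; smooth muscle fell short and is described within the mural group.

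UMIs summed per group gave CPM with exact Poisson intervals, and shares have Clopper-Pearson intervals. Intervals of ratios treat the summed counts as binomial. PCR and droplet effects are not covered. The genes named are the 8 members of each family with the highest group CPM and every called member; of each pathway list 3 genes with the highest level and those called. Any other gene was named after its values were seen, as were the motif and the promoters shown. Members and lists were chosen with earlier results of these data known. Positions are from GENCODE vM21 (mm10), and 11 of the 33 named members overlap another annotated gene, none on the same strand. For 4 of them, Rgs20, Pde10a, Adcy3 and Adcy8, an overlapping gene is protein-coding, and the open question of strand in the counting holds for each.

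On simulated counts of 18202 genes, 69 of 100 genes raised 6-fold and 82 of 100 raised 12-fold in striatal projection neurons were called, and 59 and 76 of 100 in mural nuclei. Among raised genes of at least 20 CPM in the pooled groups before raising, these were 35 of 35, 34 of 34, 34 of 35 and 34 of 34. In the tested group itself such genes stood 6-fold or 12-fold higher, so recovery near 20 CPM there is not shown. Of the 18102 unraised genes, 0 and 0 were called in striatal projection neurons and 3 and 7 in mural nuclei. Unraised genes were simulated at the same level in every group with counting error only, so other sources of false calls were not covered.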

Additional observations from a re-analysis of the deposited data

Results flagged for a closer look

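Rgs22, an RGS gene, was low in all 11 groups, with at most 11.7 CPM, but was at 319 and 606 CPM in the ependymal and choroid plexus nuclei (38 and 42), which entered no comparison. It was chosen after its values were seen: its lower interval bounds of 239.9 and 504 CPM lay above the upper bounds of the 11 groups, the highest of which was 31.4. The level lay in cluster 38, led by the cilium gene Dnah12, at 919 (689 to 1202) and 939 (780 to 1120) CPM over 15 and 29 nuclei. In choroid plexus cluster 41, led by Otx2os1, Htr2c and Ttr, it was 8.98 and 13.6 CPM, on 1 UMI each.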

How the results depend on the processing

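With a threshold of 2-fold in place of 4-fold, 34 members were called in some group (34.9% of all genes, against 13.4% at 4-fold). Cortical excitatory neurons then had 3, hippocampal excitatory neurons 1, interneurons 3, astrocytes 3 and fibroblasts 4. For the counts by group under other settings the share over all genes is not given here, so whether they are unusual is not known. Median-of-ratios size factors added 1 in cortical excitatory neurons (Rgs6). Interneurons had 0, losing Pde11a, with a requirement of 2-fold above the highest other group, at Leiden resolution 1 and without a mitochondrial limit. Fibroblasts had 1 at Leiden resolution 1 (Pde5a), and 1 without a doublet limit, with a doublet score limit of 0.15, without a mitochondrial limit and with all genes eligible as variable genes (Rgs16 each time). A mitochondrial limit of 1% left 7 groups, without microglia, endothelial, mural and fibroblast nuclei: 10 members were called in some group (7.40% of 16761 genes), 1 in oligodendrocyte precursors (Pde3a), Pde10a and Pde11a were not, Pde5a was called in interneurons, and 18 of 240 pairs were 2-fold apart between libraries (10.2% over all genes). The requirement of 2-fold above the highest other group also lost Pde1c, Rgs5 and Pde5a and added Rgs4 in mural nuclei. Equal weight per nucleus added Rgs5 in mural nuclei. A minimum of 100 UMIs removed Adcy4. Leiden resolution 1 formed no precursor or microglia group and lost the mural call of Pde5a. Mural Pde3a was then 222 and 516 CPM and endothelial Rgs5 of library 2 was 1210 CPM; the cause was not tested. Without a doublet limit Pde5a lost its mural call too. Leaving out astrocyte cluster 28, striatal cluster 46 or endothelial cluster 35, added after seeing the data, lost no call; without oligodendrocyte cluster 2 no oligodendrocyte group was left and Pde8a was called in endothelial nuclei. No paired analysis was possible because the barcodes carry no sample and no test was made. Depth limits Adcy4, Adcy6, Adcy7 and Pde4c, which rest on 37 UMIs or fewer per library in the groups named. It also limits the partner genes Gng8 and Npr1, called on 13 UMIs or fewer per library. Age and library cannot be told apart.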
